A study of Rattus norvegicus with 12 samples.

Results

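The genes described here are 8 adipokines of the mammary fat pad, Adipoq, Lep, Retn, Cfd, Rarres2, Nampt, Apln and Rbp4. They were chosen by name as secreted proteins of fat tissue, 8 genes of the 26456 gene symbols on the array, and each was read by 1 probe. Total RNA of the lumbar mammary gland, the gland with its fat pad, was hybridised to Agilent one-colour arrays, 1 array for each of 12 female Wistar rats. Their mothers were fed Altromin diets through pregnancy, with 17.0% protein in the normal protein group (NP) and 8.8% in the low protein group (LP), a model of intrauterine growth restriction. From birth on all mothers had standard chow, and litters were cut to 6 females. The offspring were nursed until day 21 and then weaned to standard chow. Glands cleared of visible lymph nodes were taken at day 21 of life (d21), the day of weaning, or at day 28 (d28). The comparison of days therefore also spans the change from milk to chow. Each of the 4 groups of diet and day held 3 rats, and the labels used here do not say which rats shared a mother. The question was whether the mother's diet, or the week of weaning and early puberty between both days, went along with a different adipokine message in the gland.

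Adipokines are proteins that fat cells, and in part the other cells of fat tissue, release into the blood or to their neighbours. The mammary ducts of a young rat grow into a pad of white fat, so these genes are read here from the tissue that surrounds the growing epithelium. Adiponectin (Adipoq) acts on liver and muscle and raises insulin sensitivity, leptin (Lep) reports fat stores to the brain, and resistin (Retn) is, in rodents, a product of fat cells that counters insulin. Adipsin (Cfd) is complement factor D, chemerin (Rarres2) is a chemoattractant that is cut to its active form outside the cell, Nampt is an enzyme of NAD synthesis that is also found outside cells, apelin (Apln) is a peptide ligand of a vascular receptor, and Rbp4 carries retinol in blood.

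All values are log2 signals relative to the 75th percentile of the same array, so 0 marks a probe as bright as that percentile. The array's probes differ in how well they bind, so levels were compared between rats and never between genes. All 8 probes were well above background on all 12 arrays, and none was saturated. The 60-base probes of 3 of the genes, Lep, Rarres2 and Retn, are shown in full or in part, so that it is clear which stretch of each message was read. The leptin probe lay at chr4:55945879-55945938 of the rn4 build. Read in triplets from its first base it holds its first stop triplet, in capitals, as its 18th. The chemerin probe spanned 339 bases of the genome (chr4:76662104-76662442), more than its own length, so it crosses an intron. For resistin (chr12:2499633-2499692) the first 30 bases are given.
Lep probe: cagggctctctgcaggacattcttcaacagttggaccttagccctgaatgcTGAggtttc
Rarres2 probe: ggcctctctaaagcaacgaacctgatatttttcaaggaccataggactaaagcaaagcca
Retn probe, first bases: agatgagggtctggaaatacacaatgggat

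The tissue matched its label. All 18 adipocyte genes that the array holds, of 20 listed, were well above background on every array, among them Fabp4, Pparg and Cd36, and so were all 9 markers of mammary epithelium. Of 6 brown fat markers on the array 2 to 4 were detected in each rat, with Elovl3 detected in none. The array of LP rat 6a at day 21 stood apart, with a mean log2 signal of -5.02 over 8 lymphocyte genes against -0.50 to 0.78 on the other arrays. Skeletal muscle genes varied from a mean of -4.20 in LP rat 4a to 3.44 in LP rat 6a, both of day 21. Among LP rats of day 28 the mean was 3.00 in rat 6f, against -3.67 in rat 4f and -2.84 in rat 7f. At day 28 the array of NP rat 4f had the lowest Lep, Apln and Rarres2 and the highest Cfd of all 12. The 3 arrays of a group are separate rats, and differences were tested with limma in 1 fit of all 12 arrays, with Benjamini-Hochberg adjustment over 23209 probes. The NP and LP rats of a day shared a slide, but not all of its rows. All NP rats and LP rats 4a and 4f were in row 1, while LP rats 6a, 7c, 6f and 7f were in row 2. Row and diet were thus partly confounded in every comparison of diets. All rats of day 21 were on one slide and all rats of day 28 on the other, so day and slide cannot be told apart.

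**Figure D1:**
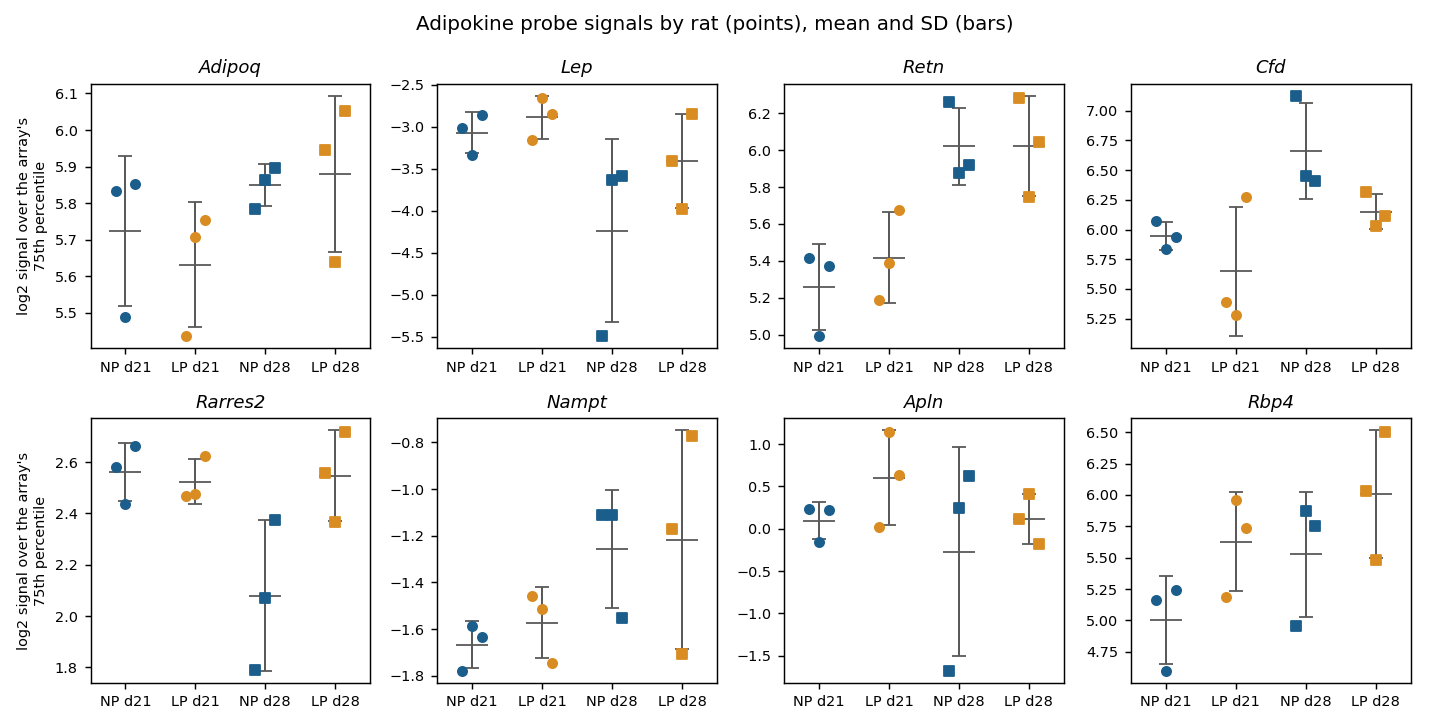
Signal of each adipokine probe in each rat. The vertical axes give the log2 signal over the 75th percentile of the array, each panel on its own scale. Points are rats (blue NP, orange LP, circles day 21, squares day 28), and bars give the mean and SD of 3 rats. Retn at day 28 lay above Retn at day 21 in both diets, and the lowest Lep, Apln and Rarres2 points belong to 1 rat of the NP d28 group.

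Between the 2 days, resistin was the adipokine whose rise passed the adjusted threshold. In NP rats the Retn signal was 5.41, 4.99 and 5.37 at day 21 (rats 4a, 5a and 6a) and 6.26, 5.88 and 5.92 at day 28 (rats 4f, 5f and 6f). In LP rats it was 5.19, 5.39 and 5.68 at day 21 (rats 4a, 6a and 7c) and 6.29, 5.75 and 6.04 at day 28 (rats 4f, 6f and 7f). Every rat of day 28 was above every rat of day 21, whatever its diet, a separation seen in 3.63% of all tested genes. Over both diets the rise was 0.69 on the log2 scale (SE 0.13, 95% interval 0.39 to 0.98), 1.61-fold, with an adjusted p of 0.0384 in limma. Retn was the only one of the 8 genes to pass the adjusted threshold of 0.05. Of all 20199 tested genes 1.84% passed it, 1.16% as higher at day 28. The call sat near that threshold. It was kept in 8 of 22 alternative settings and lost in 14, where the adjusted p was at most 0.0944, while the rise stayed between 0.52 and 0.76. Without LP rat 6a of day 21 it was 0.68 with an adjusted p of 0.0821, and without NP rat 4f of day 28 it was 0.63 with an adjusted p of 0.0565, both from limma.

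Taken by diet, Retn was higher at day 28 by 0.76 in NP rats (SE 0.19, unadjusted p = 0.00244 and adjusted p = 0.152 in limma) and by 0.61 in LP rats (SE 0.19, unadjusted p = 0.00939 and adjusted p = 0.358 in limma). Neither passed after adjustment. The 2 rises differed by -0.15 (LP minus NP, 95% interval -0.75 to 0.44), so a difference between the diets was not shown. For diet itself LP minus NP was 0.16 at day 21 (95% interval -0.26 to 0.58) and 0.0043 at day 28 (95% interval -0.42 to 0.43), and the sign of both turned with the replicate number in the fit. The summed signal of the 18 adipocyte genes, in multiples of the 75th percentile, overlapped between days, from 236.1 to 329.6 at day 21 and from 244.8 to 387.0 at day 28. The summed signal of 8 macrophage genes, all detected in every rat, was 21.1 to 67.9 at day 21 and 69.2 to 99.4 at day 28. These sums did not overlap, but the mean log2 signal of the same genes did. It was -0.19 to 0.79 at day 21 and 0.61 to 1.17 at day 28. From rat to rat the mean macrophage signal and Retn had r = -0.09 within day 21 (exact permutation p = 0.794) and -0.32 within day 28 (exact permutation p = 0.558). With the mean adipocyte signal Retn had r = 0.68 within day 21 (rho 0.49, exact permutation p = 0.125) and 0.95 within day 28 (rho 1, exact permutation p = 0.00278, adjusted p = 0.208 over 200 relations within days). With the mean skeletal muscle signal Retn had r = 0.34 within day 21 (exact permutation p = 0.518). Within day 28 that r was -0.85 (rho -0.89, exact permutation p = 0.0292, adjusted p = 0.359). The part of these cell types in the day difference was not tested. In a whole gland more cells of a type and more RNA per cell cannot be told apart.

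The promoter of Retn, the only one of the 8 genes to pass the adjusted threshold for day, is shown. It is given from 250 bases before to 50 after the start of the RefSeq gene model on GRCr8, chr12:6508524-6508823, plus strand. Of the 8 genes, 7 had a promoter in the table used, all but Nampt. Short words of fat cell regulators and core promoters were searched on both strands, and matches are in capitals. AGGTCA is the core word of nuclear receptors such as PPAR and RXR, and TTGCNNAA is bound by C/EBP factors. CCAAT is the CCAAT box, TATAAA the TATA box and CACGTG an E-box. ACGTG is CACGTG without its first base. The Retn window held AGGTCA with its first base at -169 and again at -7, a word found in 16.2% of 33469 promoters of that length. A match describes letters only.
Retn promoter: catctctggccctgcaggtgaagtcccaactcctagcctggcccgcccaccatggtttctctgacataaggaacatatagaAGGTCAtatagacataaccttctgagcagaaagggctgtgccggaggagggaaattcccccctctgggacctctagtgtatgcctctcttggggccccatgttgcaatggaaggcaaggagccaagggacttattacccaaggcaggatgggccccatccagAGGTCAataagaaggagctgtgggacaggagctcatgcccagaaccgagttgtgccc
The direct repeat of that word with 1 base between the copies stood in 0.0538% of promoters and in none of these 7. TATAAA was in 14.2%, CACGTG in 6.42% and ACGTG in 19.3% of promoters, and of the 7 adipokines Rbp4 alone held TATAAA while none held CACGTG or ACGTG.

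Leptin was lower at day 28 than at day 21, and 1 rat set the size of that difference. In NP rats the Lep signal was -3.01, -3.34 and -2.86 at day 21 and -5.49, -3.63 and -3.58 at day 28. In LP rats it was -3.16, -2.65 and -2.84 at day 21 and -3.41, -3.97 and -2.85 at day 28. The NP groups did not overlap, since the highest day 28 rat was below the lowest day 21 rat, whereas LP rat 7f of day 28 lay among the rats of day 21. NP rat 4f was far below the other 11 rats. Over both diets the difference was -0.85 (SE 0.33, unadjusted p = 0.0297 and adjusted p = 0.209 in limma). It was -0.53 without NP rat 4f, a change of more than 1.5 times (unadjusted p = 0.0259, adjusted p = 0.181 in limma). In NP rats alone it was -1.17 (unadjusted p = 0.033, adjusted p = 0.344 in limma), and -0.54 without that rat.

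The diet difference of Lep at day 28 also turned on that rat. LP was above NP by 0.83 (SE 0.47, 95% interval -0.23 to 1.88, unadjusted p = 0.111, adjusted p = 0.581 in limma), by 0.20 without NP rat 4f and by 0.55 without LP rat 7f. With 1 rat left out at a time the difference ranged from 0.20 to 1.15. At day 21 the LP minus NP difference was 0.18 (95% interval -0.87 to 1.24), with the groups overlapping. The Lep promoter (chr4:58626288-58626587 of GRCr8, plus strand) is shown for the C/EBP word TTGCNNAA, which reads the same way on both strands here, at -69. That word was in 10.6% of promoters. A CCAAT box lay at -104 on the minus strand, as 37.5% of promoters hold one.
Lep promoter: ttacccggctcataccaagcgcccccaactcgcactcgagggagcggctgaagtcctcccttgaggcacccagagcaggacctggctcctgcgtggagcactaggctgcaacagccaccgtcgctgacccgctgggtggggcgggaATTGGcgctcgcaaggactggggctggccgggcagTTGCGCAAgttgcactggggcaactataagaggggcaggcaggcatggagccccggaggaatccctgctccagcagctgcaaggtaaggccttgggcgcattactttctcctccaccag

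Adipsin stood higher at day 28 and, at that age, lower in LP than in NP rats, though neither difference passed the adjusted threshold. In NP rats the Cfd signal was 6.07, 5.84 and 5.94 at day 21 and 7.13, 6.45 and 6.41 at day 28. In LP rats it was 5.39, 5.28 and 6.27 at day 21 and 6.31, 6.03 and 6.11 at day 28. All 3 NP rats of day 28 were above all NP rats of day 21, and LP rat 7c of day 21 was as high as the LP rats of day 28. The day difference over both diets was 0.61 (SE 0.19, 1.53-fold, unadjusted p = 0.00907, adjusted p = 0.128 in limma). Without LP rat 7c it was 0.77 with an adjusted p of 0.0498 in limma, so that Cfd was then called too. Without NP rat 4f of day 28 it was 0.49 (adjusted p = 0.163 in limma). Without LP rat 6a of day 21 it was 0.52 (adjusted p = 0.226 in limma).

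At day 28 all LP rats were below all NP rats for Cfd, by -0.51 on average (SE 0.27, 95% interval -1.11 to 0.08, unadjusted p = 0.0845, adjusted p = 0.581 in limma). Such a separation, in either direction, was seen for 16.8% of all tested genes in that comparison, and for 1 of the 8 adipokines. Without NP rat 4f the difference was -0.28. On the array of LP rat 6f the 2 Cfd spots read 6.41 and 5.65, the widest spot spread of any adipokine on any array (SD 0.53). At day 21 LP minus NP was -0.30 (95% interval -0.90 to 0.29), and LP rat 7c was above all 3 NP rats. Without that rat it was -0.61, without LP rat 6a -0.12 and without LP rat 4a -0.17.

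Markers of 3 other cell types differed between the diets at day 28 as Cfd did, without overlap of their mean signals. The means of the adipocyte, brown fat, stroma, macrophage, muscle and liver lists overlapped. Of single tested genes 16.8% separated the diets at day 28. For the epithelial genes the gap was narrow, with a mean log2 signal of -0.22 to 1.01 in NP and 1.05 to 1.36 in LP rats. The summed signal of the 9 epithelial genes, each detected in every rat, was 14.3 to 30.2 in NP and 32.8 to 37.0 in LP rats of day 28, so LP rats had more epithelial signal where they had less Cfd. At day 21 the ranges were 16.2 to 32.5 and 21.4 to 61.6. Endothelial and lymphocyte genes, 8 of 8 detected in every rat of day 28, were lower in LP, as Cfd was. The mean log2 signal of the endothelial genes was -0.82 to -0.49 in NP and -1.01 to -0.84 in LP rats, though their summed signals overlapped (16.9 to 25.9 and 14.1 to 19.3). That of the lymphocyte genes was 0.49 to 0.78 in NP and -0.50 to 0.35 in LP rats, with summed signals of 21.5 to 27.3 and 12.1 to 19.6. Over the 6 rats of day 28 the Pearson correlation of Cfd with the mean epithelial signal was -0.97 (Spearman rho -0.94, exact permutation p = 0.00417, two-sided), and over the 6 rats of day 21 it was -0.86 (rho -0.83, exact permutation p = 0.0278). Over all 12 rats r was -0.68 (permutation p = 0.0153, adjusted p = 0.218) with a rho of -0.63 (permutation p = 0.0327, adjusted p = 0.327), and r was -0.21 when the 2 rats farthest from the median epithelial signal were left out. Of 100 relations computed over all rats and 200 within days, none passed at an adjusted p of 0.05 (for these 2 within-day values, adjusted p = 0.208 and 0.359 by permutation). With the endothelial genes Cfd had r = 0.98 within day 28 (rho 0.89, exact permutation p = 0.0111, adjusted p = 0.278), 0.63 within day 21 (exact permutation p = 0.161) and 0.06 over all 12 rats (permutation p = 0.856). With the lymphocyte genes it was 0.65 within day 28 (rho 0.89, exact permutation p = 0.201) and 0.61 within day 21 (exact permutation p = 0.2). The part of these cell types in the Cfd difference was not tested. The Cfd promoter held none of the words searched.

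Chemerin was the adipokine with the lowest unadjusted p for diet. At day 28 the Rarres2 signal was 1.79, 2.07 and 2.38 in NP rats and 2.56, 2.36 and 2.72 in LP rats. LP rats 4f and 7f were above all NP rats, and LP rat 6f was just below the highest NP rat. LP was above NP by 0.47 (SE 0.15, 95% interval 0.13 to 0.81, 1.38-fold, unadjusted p = 0.0121), but with an adjusted p of 0.581 in limma. No gene on the array passed the adjusted threshold for diet at day 28 (0% of 20199), and 7.95% of them had an unadjusted p under 0.05, as had 1 of the 8 adipokines.

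At day 21 the same gene showed no such gap. The Rarres2 signal was then 2.58, 2.44 and 2.66 in NP rats and 2.47, 2.48 and 2.62 in LP rats, with an LP minus NP difference of -0.04 (95% interval -0.38 to 0.30). The change of the diet difference from day 21 to day 28 was 0.50 (SE 0.22, unadjusted p = 0.0418, adjusted p = 1 in limma), and 2.27% of genes had an unadjusted p under 0.05. In NP rats the signal was lower at day 28 than at day 21 without overlap, by -0.48 (unadjusted p = 0.0104, adjusted p = 0.241 in limma), and in LP rats the day difference was 0.02. Without NP rat 4f of day 28 the diet difference at day 28 was 0.32 and the day difference in NP rats -0.34. The Rarres2 promoter (chr4:78856359-78856658 of GRCr8, minus strand) is shown beside that of Retn because it also holds AGGTCA, at -143.
Rarres2 promoter: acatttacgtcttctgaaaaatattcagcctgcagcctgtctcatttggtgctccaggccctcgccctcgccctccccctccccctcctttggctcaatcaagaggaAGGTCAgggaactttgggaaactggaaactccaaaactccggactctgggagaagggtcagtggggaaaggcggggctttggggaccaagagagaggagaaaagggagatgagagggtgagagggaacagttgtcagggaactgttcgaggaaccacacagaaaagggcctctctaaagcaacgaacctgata

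Rbp4 stood higher in LP rats on average at both days. Its signal at day 21 was 5.16, 4.60 and 5.24 in NP and 5.19, 5.96 and 5.74 in LP rats. At day 28 it was 4.96, 5.87 and 5.75 in NP and 6.03, 5.48 and 6.50 in LP rats. In each day 2 of the 3 LP rats were above all NP rats, and the groups overlapped. LP minus NP was 0.63 at day 21 (SE 0.33, unadjusted p = 0.0881, adjusted p = 0.861 in limma), 0.48 at day 28 (SE 0.33, unadjusted p = 0.18, adjusted p = 0.597 in limma) and 0.55 over both days (SE 0.23, 1.47-fold, unadjusted p = 0.0403, adjusted p = 0.418 in limma). Over both days 11.7% of genes had an unadjusted p under 0.05 for diet, against 1 of 8 adipokines, the adjusted threshold was passed by 0%, and no adipokine separated all LP from all NP rats, as 1.12% of genes did. The difference at day 28 was 0.19 without NP rat 4f, 0.23 without LP rat 7f and 0.74 without LP rat 6f. With the row on the slide in the fit the Rbp4 difference over both days was 0.35 (unadjusted p = 0.329 in limma), since LP rats 6 and 7 were in the second row and all NP rats in the first.

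Adiponectin had the smallest difference of the 8 genes both for diet over both days, -0.03, and for day over both diets, 0.19. Adipoq lay between 5.49 and 5.85 in NP and 5.44 and 5.75 in LP rats of day 21, and between 5.79 and 5.90 in NP and 5.64 and 6.05 in LP rats of day 28. All 4 ranges overlapped apart from a narrow gap between the LP d21 and NP d28 rats. LP minus NP was -0.09 at day 21 (95% interval -0.42 to 0.23) and 0.03 at day 28 (95% interval -0.29 to 0.35). The day difference had a 95% interval of -0.04 to 0.41 and an adjusted p of 0.346 in limma. The sign of the diet difference at day 28 and of the day difference in NP rats changed with the background correction or the normalisation.

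Nampt lay between -1.78 and -1.59 in NP rats of day 21 and between -1.55 and -1.11 in NP rats of day 28, without overlap. In LP rats the ranges were -1.75 to -1.46 and -1.71 to -0.77, which overlapped. The day difference over both diets was 0.38 (SE 0.15, unadjusted p = 0.0328, adjusted p = 0.218 in limma), and for diet the differences were 0.09 at day 21 and 0.04 at day 28.

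Apelin had the widest error of the 8 genes, with an SE of 0.37 for the day difference over both diets. Apln lay between -0.15 and 0.23 in NP and 0.02 and 1.14 in LP rats of day 21, and between -1.68 and 0.63 in NP and -0.18 and 0.41 in LP rats of day 28. Its diet difference at day 28 was 0.38 (95% interval -0.78 to 1.54) with NP rat 4f, the one at -1.68, and -0.32 without it. With the row on the slide in the fit of all rats the diet difference at day 28 was 0.09. In NP rats the day difference likewise turned from -0.37 to 0.34. No direction was settled for Apln.

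**Figure D2:**
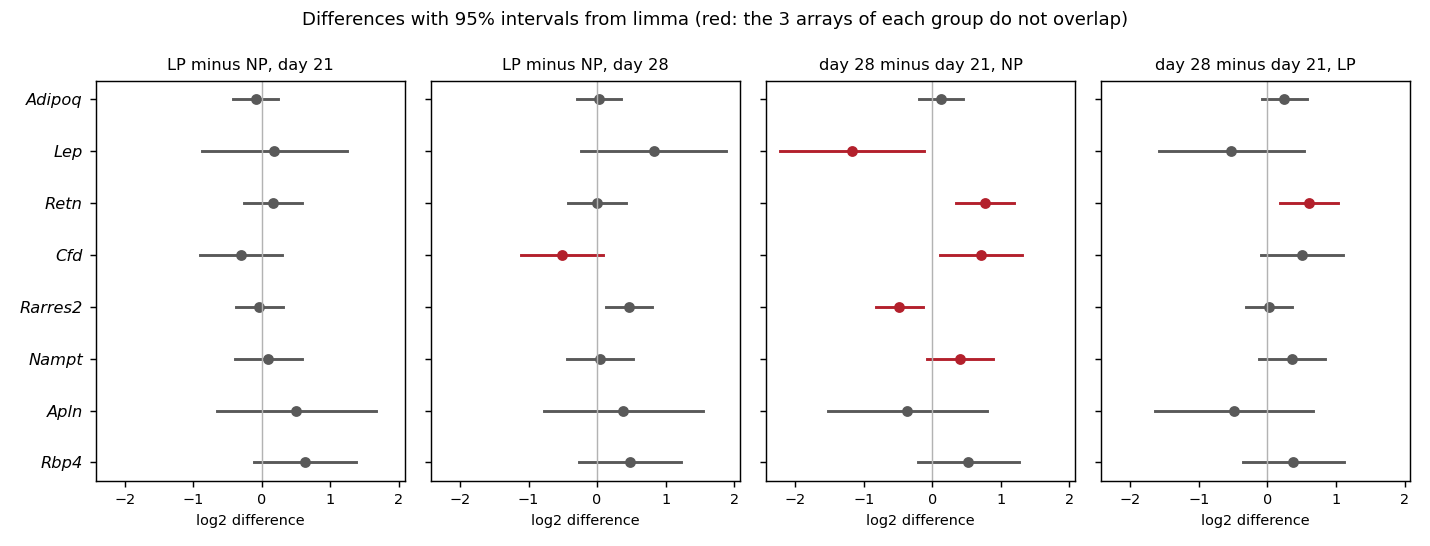
Differences of the 8 adipokines in 4 comparisons. The horizontal axes give the log2 difference, points are the estimates of limma and lines their 95% intervals, and red marks genes whose 2 groups of 3 rats do not overlap. For diet, 1 gene separated, Cfd at day 28, and for day 5 genes did so in NP rats and 1, Retn, in LP rats.

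Counted over the family, none of the 8 genes was called for diet in limma at day 21, at day 28 or over both days, where 0% of all tested genes were called as well. At an unadjusted p under 0.05 none of the 8 passed for diet at day 21, where 4.34% of genes did, and none separated the diets without overlap, where 11.6% of genes did. For day in NP rats none was called, against 0.257% of genes, while 4 of 8 had an unadjusted p under 0.05 (Retn and Cfd higher, Lep and Rarres2 lower), against 12.7% of genes. In that comparison 5 of 8 did not overlap, against 18.7% of genes. In LP rats none was called, against 0%, and 1 of 8, Retn, had an unadjusted p under 0.05, against 9.85%, and did not overlap, against 18.4%. Over both diets 4 of 8 were under 0.05 before adjustment (Retn, Cfd and Nampt higher, Lep lower), against 19% of genes. The median day difference of the 8 was 0.28 over both diets, beside 0.02 for all genes, and the median diet difference 0.15, beside -0.02.

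The receptors and binding partners of these proteins did not give a called gene in any comparison. Of 25 listed, 23 were on the array and 22 were tested, and the leptin receptor Lepr was well above background on no array. Among the partners of adiponectin, T-cadherin (Cdh13), which binds its large forms at the cell surface, was lower at day 28 in every rat than in any rat of day 21, by -0.39 (SE 0.11, unadjusted p = 0.00429, adjusted p = 0.0943 in limma). Of the adiponectin receptors, Adipor1 lay between 1.95 and 2.18 at day 21 and between 2.12 and 2.35 at day 28, with overlap. Adipor2 varied within 1.70 to 2.29 over both days. Of the 22 genes, 4 were higher and 2 lower at day 28 at an unadjusted p under 0.05, beside 19% of all genes.

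In the leptin pathway Stat3, which carries the signal from receptor to nucleus, was higher at day 28 by 0.32 (unadjusted p = 0.00992, adjusted p = 0.133 in limma). Socs3, an inhibitor that leptin signalling induces, was lower in LP rats over both days by -0.35 (unadjusted p = 0.0131, adjusted p = 0.418 in limma), and at day 28 by -0.40, with the groups overlapping. The chaperone Erp44, which holds adiponectin back until its multimers are formed, was higher in LP rats by 0.15 (unadjusted p = 0.0424, adjusted p = 0.418 in limma).

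Adipsin cleaves factor B in the alternative complement pathway, and C3, the protein that pathway acts on, was read at -1.18, -2.49 and -1.28 in LP rats of day 21 and at -0.85, -0.56 and -0.67 at day 28. The day 28 rats were all higher, and LP rat 6a of day 21, the one with few lymphocyte transcripts, was far below the others. The difference was 0.96 (unadjusted p = 0.00994, adjusted p = 0.361 in limma), and 0.54 without LP rat 6a. Properdin (Cfp), which stabilises the C3 convertase, was higher by 0.62 in the same comparison (adjusted p = 0.424 in limma), and by 0.38 without LP rat 6a. For C3ar1, a receptor for a C3 fragment, LP was above NP at day 28 by 0.98 (unadjusted p = 0.0308, adjusted p = 0.581 in limma), and by 0.57 without LP rat 7f. The chemerin receptor Cmklr1 was higher in every LP rat than in any NP rat of day 21, by 0.56 (unadjusted p = 0.0714, adjusted p = 0.861 in limma), and by 0.32 without NP rat 5a.

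Among 18 further secreted factors tested of 21 listed, 1 was called. Agt, angiotensinogen, the precursor of angiotensin that fat also makes, was 3.95, 3.62 and 3.59 in NP and 3.57, 3.21 and 3.71 in LP rats of day 21. At day 28 it was 4.52, 4.38 and 4.14 in NP and 4.95, 4.31 and 4.81 in LP rats. Every day 28 rat was above every day 21 rat, as for Retn. Over both diets Agt rose by 0.91 (SE 0.14, 1.88-fold, adjusted p = 0.0173 in limma). Without NP rat 6a of day 21 the adjusted p was 0.0583. Within diets the difference was 1.19 in LP (adjusted p = 0.156) and 0.63 in NP rats (adjusted p = 0.241 in limma).

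Other secreted factors gave values that did not pass after adjustment in limma. Ccl2, a chemokine for monocytes, was higher at day 28 by 0.79 over both diets (adjusted p = 0.155). Angptl4, an inhibitor of lipoprotein lipase, was higher at day 28 in LP rats by 0.73 (adjusted p = 0.445), and Metrnl in NP rats by 0.60 (adjusted p = 0.359), or by 0.36 without NP rat 4f. For diet, Lcn2, a siderophore-binding protein that epithelium also makes, was above NP in LP rats of day 21 by 1.12 (unadjusted p = 0.0319, adjusted p = 0.861), and its highest value, 3.44, was in LP rat 6a, the rat with the most epithelial signal, without which the difference was 0.73. The adiponectin paralogs C1qtnf1 and C1qtnf2 were higher in LP rats of day 28 by 0.45 and 0.58 (adjusted p = 0.581 for both), the first without overlap. For C1qtnf2 the difference was 0.22 without NP rat 4f and 0.88 without NP rat 6f.

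The genes of the fat cell itself gave no call for diet or day. Of 18 adipocyte genes tested, none had an unadjusted p under 0.05 in limma for diet in any comparison, and 1 had for day over both diets. That was Thrsp, which promotes lipid synthesis, higher at day 28 by 0.60 (unadjusted p = 0.0366, adjusted p = 0.228 in limma), and by 0.84 with an adjusted p of 0.0372 without LP rat 6f. Aqp7, the glycerol channel of fat cells, was higher in LP than NP rats at day 28 by 0.72 (unadjusted p = 0.0533, adjusted p = 0.581 in limma), with 0.59 in NP rat 4f as its lowest value and a difference of 0.36 without that rat. The glycerol phosphate dehydrogenase Gpd1 was higher in every LP rat than in any NP rat of day 21, by 0.43 (adjusted p = 0.861 in limma), and by 0.27 without LP rat 6a. The median day difference of the list was 0.03 and the median diet difference 0.04 over both days.

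**Figure D3:**
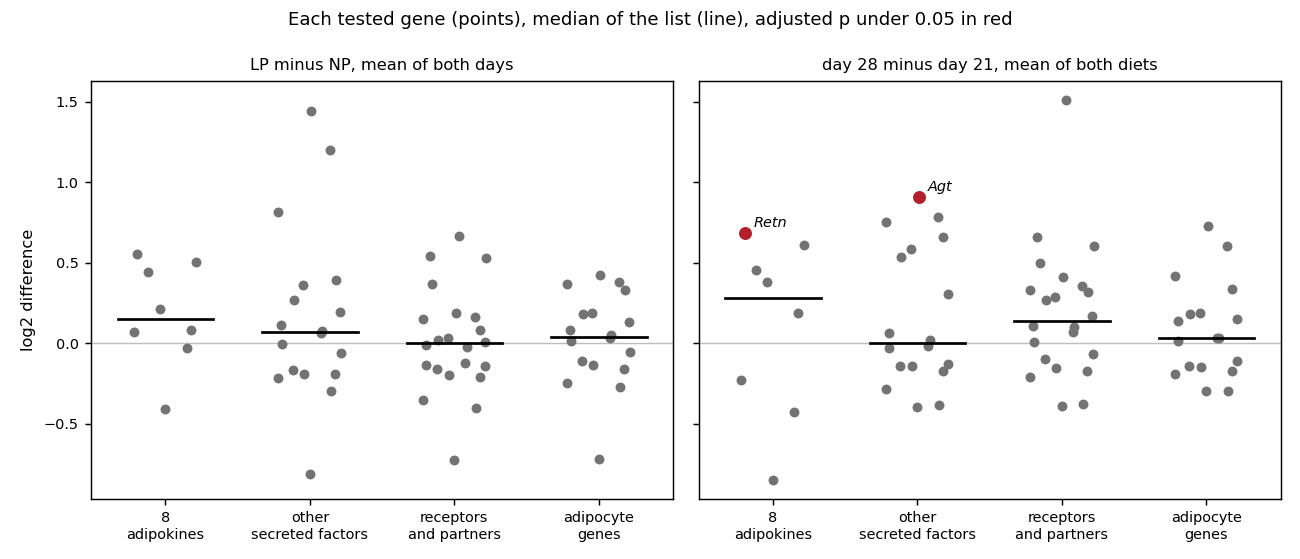
Differences of the adipokines and 3 related gene lists for diet over both days (left) and for day over both diets (right). The vertical axis gives the log2 difference, each point is a tested gene, lines are list medians and red points passed an adjusted p of 0.05 in limma. For day, Retn at 0.69 and Agt at 0.91 passed, and for diet no point did.

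Some adipokines varied together from rat to rat. Lep and Rarres2 had a Pearson correlation of 0.88 over 12 rats (permutation p = 0.00086, adjusted p = 0.086 over 100 relations) and a rho of 0.83 (permutation p = 0.00124, adjusted p = 0.0995). Without the 2 rats farthest from the median Rarres2 signal r was 0.72. Within day 28 it was 0.89 (rho 0.94, exact permutation p = 0.0125) and within day 21 it was 0.47 (rho 0.60, exact permutation p = 0.34). Lep and Rbp4 did not run together over all rats, with r at 0.36 (rho 0.29, permutation p = 0.252), but within day 21 r was 0.92 (rho 0.94, exact permutation p = 0.0111) and within day 28 it was 0.96 (rho 0.94, exact permutation p = 0.00278, adjusted p = 0.208 over 200 relations). The rats of a day share a slide, and none of these relations passed the adjusted threshold. Lep and Apln had r = 0.77 over 12 rats (permutation p = 0.0263, adjusted p = 0.292, rho 0.29). Without the 2 rats farthest from the median Apln signal r was -0.24. Within day 21 it was 0.91 (rho 0.94, exact permutation p = 0.00833, adjusted p = 0.278). Within day 28 it was 0.75 (rho 0.03, exact permutation p = 0.157).

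**Figure D4:**
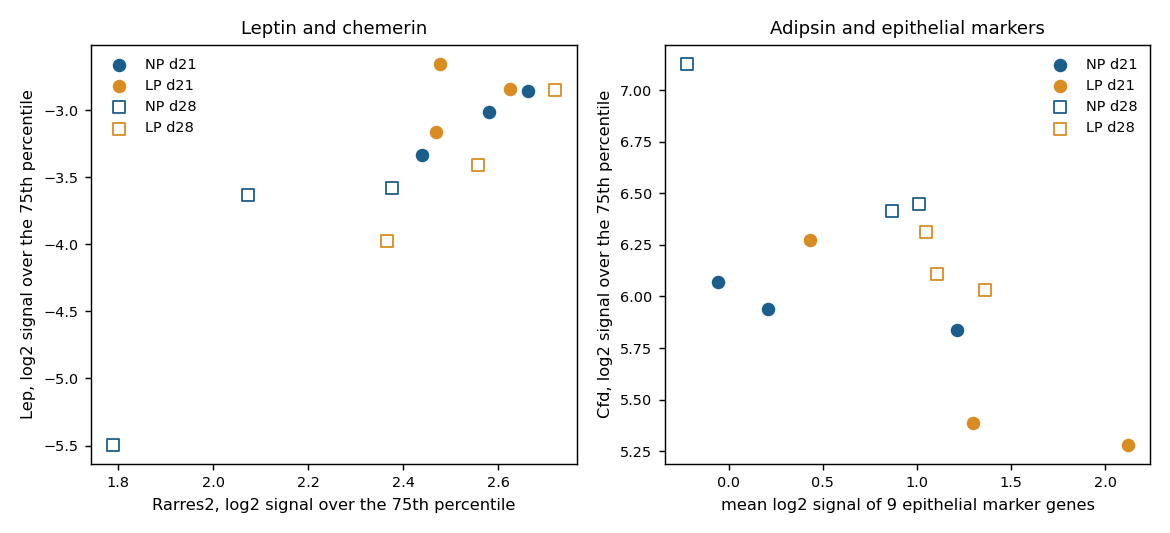
Lep against Rarres2 (left) and Cfd against the mean log2 signal of 9 epithelial marker genes (right), 1 point for each of 12 rats, filled circles at day 21 and open squares at day 28, blue NP and orange LP. Both axes are log2 signals over the 75th percentile of the array. NP rat 4f of day 28 is the lowest point on the left at -5.49 and the highest on the right at 7.13, and within each day Cfd is lower where the epithelial signal is higher.

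The genes whose pattern over the 12 arrays was most like that of an adipokine were taken from 11552 genes well above background on all arrays, by Pearson correlation, as a description. For Retn these were Lap3 (0.95), Sod3 (0.93) and Gsta3 (0.92). For Lep they were Cdr2 (0.98), Nid2 and Svep1 (both 0.97), and for Apln Alg14 (0.98), Tubb5 (0.96) and Nutf2 (0.95). NP rat 4f was the lowest of the 12 for Lep and Apln. Rbp4 ran with Calr4 (0.95), Fasn (0.93), the fatty acid synthase, and Brp44 (0.92). Cfd was nearest to Olr1555 (0.94), Rarres2 to Aifm2 (0.94), Nampt to Atad1 (0.91) and Adipoq to Bcap31 (0.91).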

How the data were processed

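Scanner files of 12 Agilent one-colour arrays (design on the rn4 build) were used, 3 female rats in each of 4 groups of maternal diet and day. The authors read them with Agilent Feature Extraction 10.7.3.1, whose deposited processed signal is a background-corrected intensity. A deposited table of the same arrays holds that signal as a ratio to the array's own median (largest relative deviation 6.56e-05), and its scale was found from the scanner values; it served as an alternative. The depth of an array has no read count, and the number of rats limits the precision.

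From these, outlier spots and 4259 control spots of an array were left out, the 75th percentile of gene spots was subtracted on the log2 scale, and spots of a probe were averaged. Where a gene had several probes the brightest was used. Probes well above background (flag set for a share of at least 0.5 of the spots) on at least 3 of 12 arrays were tested, 23209 probes of 20199 genes, the others being left out as dim. One limma 3.58.1 fit (R 4.3.3) of 4 group means gave contrasts of LP with NP and of day 28 with day 21, two-sided, with Benjamini-Hochberg adjustment and a threshold of 0.05. The study's own software for testing was not used here. The method was tested on simulated data first. Correlations over rats used 100000 permutations, or all 720 orders within a day. The members and gene lists were chosen with earlier results of these data known. From the lists, genes were named where called with a difference of at least 1, or as the 2 with the lowest p; Adipor1, Adipor2, Fabp4, Pparg, Cd36, Lepr and Elovl3 were named after their values were seen. Promoters came from a RefSeq table on GRCr8, for 7 of the 8 genes. P-values measure the spread between these rats, whose mothers are not named. Alternatives in background correction, normalisation, filter, variance, blocks, slide row and left-out rats are given in the closing section.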

Additional observations from a re-analysis of the deposited data

How the results depend on the processing

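Of 50 differences of single genes, recomputed under 1132 alternatives in all, 1085 kept their direction and side of the threshold, 15 lost a call, 1 gained one and 31 changed sign, in 13 differences, none of which was called. No adipokine was called for diet in any alternative. The count of called adipokines for day over both diets was 1, and 0 with quantile normalisation, without the filter on dim probes, with the replicate number as a block and with the slide row in the fit. Leaving out 1 rat at a time gave 0 to 2. It stayed at 1 without LP rat 6f of day 28, was 2 without LP rat 7c of day 21 (Retn and Cfd), and was 0 without each of the other 10 rats. The rise of Retn was then 0.62 to 0.76 with adjusted p of 0.0391 to 0.0889 in limma, and its adjusted p was 0.0944 with quantile normalisation (rise 0.52), 0.0585 without the filter, 0.0549 with the block and 0.0588 with the row. Counts of called other secreted factors for day ranged over 0 to 1 (0 without NP rat 6a of day 21) and of adipocyte genes over 0 to 1 (Thrsp, without LP rat 6f of day 28). Over all genes the count for day over both diets, 371, was 184 with the block, 189 without the filter, 245 with normexp, and 85 to 357 with 1 rat left out. In NP rats the 52 genes called for day became 0 without the filter, with the block or within NP arrays alone, and 0 to 30 with 1 rat left out.

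Signs turned for small differences and for larger ones of Apln. The latter were 0.38 by diet at day 28 and -0.37 by day in NP rats. With normexp background correction the diet difference at day 28 was -0.0082 for Adipoq and -0.045 for Retn. With the replicate block it was -0.098 for Adipoq and -0.17 for Retn at day 28, -0.012 for Retn at day 21 and -0.090 for Retn over both days. With the slide row it was -0.034 for Adipoq at day 28. Quantile normalisation gave 0.064 for Adipoq by diet over both days, -0.13 for Adipoq by day in NP rats and -0.033 for Rarres2 by day in LP rats. With 1 rat left out, diet differences ranged from -0.21 to 0.0056 (Adipoq, day 21), -0.056 to 0.15 (Adipoq, day 28), -0.090 to 0.029 (Adipoq, both days), -0.13 to 0.14 (Retn, day 28), -0.098 to 0.014 (Rarres2, day 21), -0.18 to 0.29 (Nampt, day 28), -0.044 to 0.19 (Nampt, both days) and -0.32 to 0.83 (Apln, day 28). Day differences ranged from -0.062 to 0.11 (Rarres2, LP) and from -0.81 to 0.34 (Apln, NP). The median over all genes shifted by at most 0.0652 with quantile or normexp scaling. The cause of these turns was not tested.

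The replicate numbers were not taken to pair the rats, since the labels do not say whether rats of a number shared a mother and not every pair deviated together. Same-numbered rats had deviations correlated at 0.03 to 0.17 between days in NP rats, -0.06 to 0.38 in LP rats and 0.09 to 0.13 between diets. As a random block the numbers had a correlation of 0.0266. The diet and day differences of the adipokines had SEs of 0.10 to 0.52, and those of the change of the diet difference between days reached 0.73, so with 3 rats a group small differences were not detectable.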
